A study of Mus musculus with 6 samples.

Results

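Mitochondrial carriers are a family of transport proteins, most of which move metabolites across the inner mitochondrial membrane. They were taken here as the mouse genes whose array annotation symbol is Slc25a followed by a number, or Ucp1, Ucp2 or Ucp3. The rule found 48 genes of the 19938 measured, each represented by its probe set with the highest mean over the 6 arrays. Ucp2 was not analysed here. RNA came from bone marrow derived macrophages of C57BL/6 mice, on Affymetrix Mouse Gene 1.0 ST arrays. The M(CSF2) group holds 3 samples of marrow cells induced for 7 days with CSF2 (GM-CSF), and the M(CSF1) group 3 samples induced for 7 days with CSF1 (M-CSF). Both cytokines drive marrow precursors toward macrophage-like cells. Cells were sorted and put into Trizol within 4 h, and total RNA was purified with a miRNeasy kit. The titles call the samples biological replicates without saying which mice supplied the marrow. If mice were pooled or shared, the spread behind each p-value is partly technical.

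Carriers of the family share a fold, and most exchange or import small molecules that the inner membrane would otherwise hold back. Through them ADP, phosphate, respiratory substrates, amino acids, cofactors and iron reach the matrix, and ATP, citrate and aspartate leave it. In macrophages the family is known for feeding citrate to lipid synthesis and for moving succinate and malate. Some members supply the iron and glycine used to make haem.

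The comparison asked how transcripts of this family differ between macrophages induced by CSF2 and by CSF1. The clearest differences lay in 4 carriers that changed at least 2-fold. The dicarboxylate carrier Slc25a10 was 4.72-fold lower in M(CSF2), the pyrimidine nucleotide carrier Slc25a36 2.50-fold lower and the ATP-Mg/phosphate carrier Slc25a24 2.25-fold lower. For Slc25a36 this is the brighter of 2 probe sets, and the other fell by less than 2-fold (-0.85 on the log2 scale). The iron importer Slc25a37 (mitoferrin 1) was 2.12-fold higher. In all, 11 of the 48 carriers passed the test (limma, Benjamini-Hochberg adjusted p under 0.05), 4 higher and 7 lower in M(CSF2), and 37 did not. That is 22.9% of the family, against 27.5% of all genes by the same rule. By direction, 8.33% of carriers were higher, against 11.9% of all genes, and 14.6% were lower, against 15.6%. The share called and changed at least 2-fold was 8.33%, against 7.99% of all genes, with 1 carrier higher (3.57% of all genes) and 3 lower (4.42% of all genes). The shares of calls in the family are thus near or below those of all genes.

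**Figure D1:**
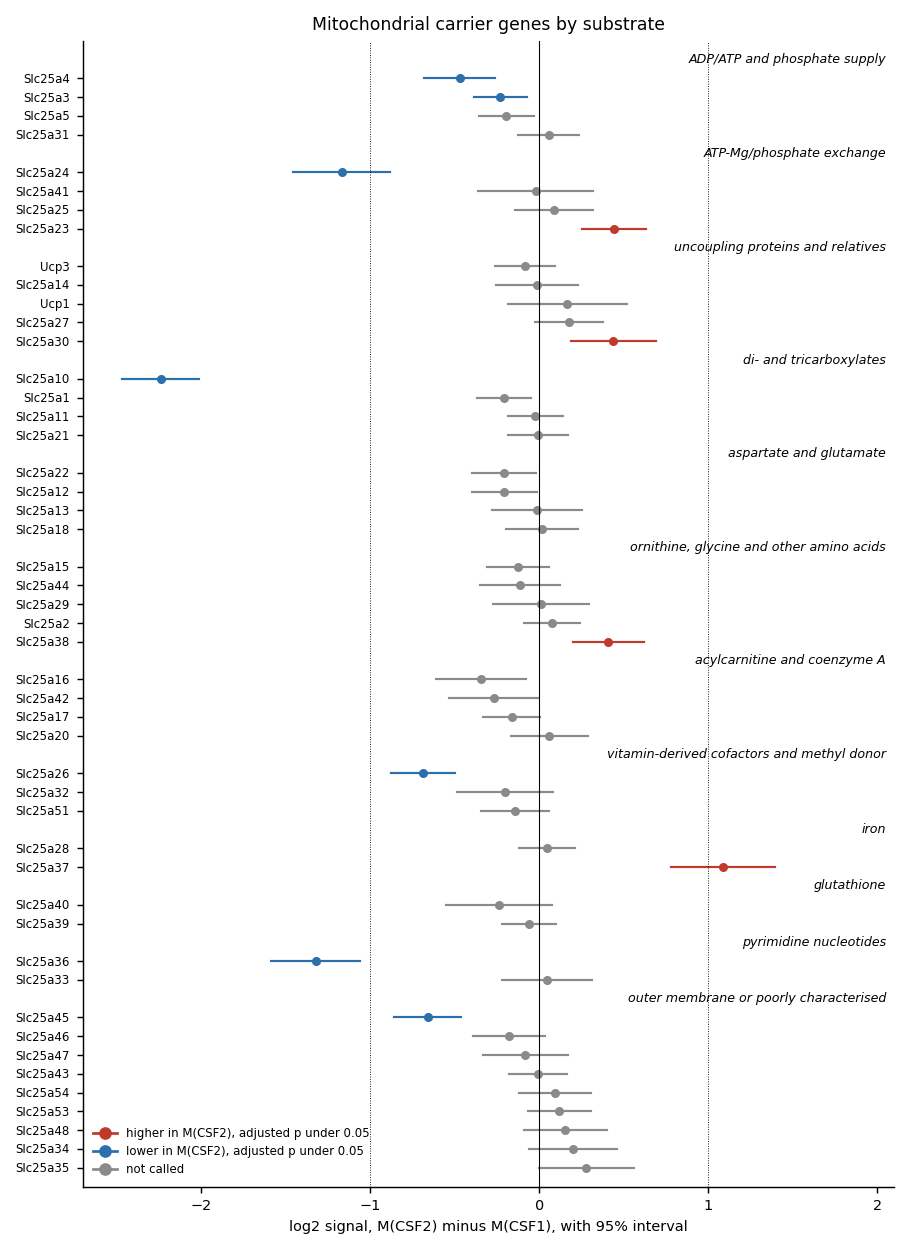
Difference of each of the 48 carrier genes (horizontal axis, log2 signal, M(CSF2) minus M(CSF1)) with its 95% interval from limma, grouped by substrate. Red points are higher and blue points lower in M(CSF2) at an adjusted p under 0.05, grey points were not called, and dotted lines mark 2-fold. Slc25a10, at -2.24, lies farthest from 0, and Slc25a37, at 1.09, is the 1 point beyond the right dotted line.

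Small negative differences were frequent. The median carrier difference was -0.02 on the log2 scale, against 0.04 over all genes, and 29 of 48 carriers (60.4%) had a negative difference, against 41.5% of all genes. The carrier median depended on the setting. It lay between -0.06 and -0.03 with any 1 of the 6 arrays left out, at -0.05 after quantile normalization (all genes 0.01), at -0.06 after centring on array medians (all genes 0.0015), at -0.07 without genes at the olfactory receptor level (all genes 0.03) and at -0.16 without genes below the median signal (all genes -0.02). Groups did not overlap for 22 carriers, with all 3 M(CSF2) arrays above in 6 and all 3 below in 16. That is 45.8% of the family, against 38.9% of all genes, of which 19.1% lay above and 19.8% below. A signal of 3.36, the 95th percentile of 1015 olfactory receptor genes, served as the level at which a gene is not told from background. At or below it on every array lay 6 carriers: Slc25a2, Slc25a21, Slc25a31, Slc25a53, Slc25a54 and Ucp3. Among the other 42, 27 (64.3%) had negative differences, against 45.9% of all genes above that level, and 26.2% were called, against 39.5%. Groups did not overlap for 22 of these 42 carriers, and for 7109 of 13624 genes with a group mean above that level. Those 2 shares are close to each other. None of the 95% intervals of the 37 carriers not called reached 2-fold: their limits ran from -0.61 to 0.56. For the dim members the log2 differences may understate a change, which was not tested.

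**Figure D2:**
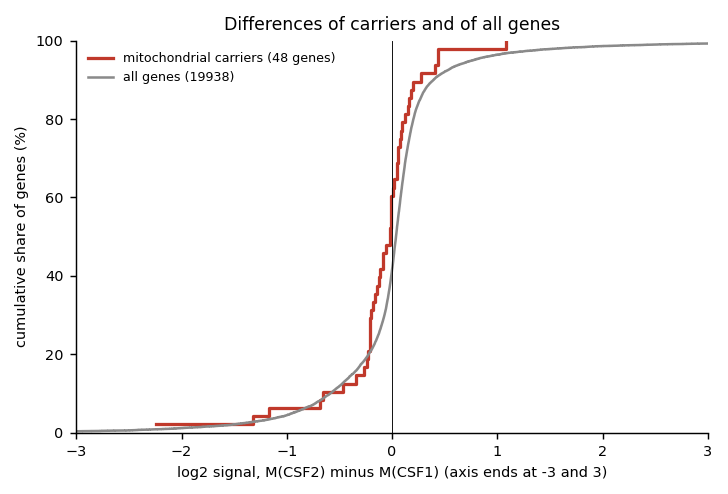
Cumulative share of genes (vertical axis, percent) by log2 difference, M(CSF2) minus M(CSF1) (horizontal axis), for 48 carriers in red and 19938 genes in grey. The red curve crosses 0 at 60.4% and the grey one at 41.5%, and 1 carrier lies above 1.

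Upstream sequences are shown for Slc25a10, Slc25a24 and Slc25a36, chosen as the 3 carriers called and at least 2-fold lower in M(CSF2). They come from RefSeq, build GRCm38.p6. Given are the 250 bases before the annotated start, on the gene's strand. They lie at chr11:120491587-120491836 (plus strand) for Slc25a10, chr3:109122899-109123148 (plus strand) for Slc25a24 and chr9:97111042-97111291 (minus strand) for Slc25a36. Capitals mark matches on either strand to CACGTG (an E-box, bound by MYC and related factors), TTCNNNGAA (bound by STAT factors), CCAAT and GGGCGG (a GC box). The matches in these windows do not overlap each other.
Slc25a10: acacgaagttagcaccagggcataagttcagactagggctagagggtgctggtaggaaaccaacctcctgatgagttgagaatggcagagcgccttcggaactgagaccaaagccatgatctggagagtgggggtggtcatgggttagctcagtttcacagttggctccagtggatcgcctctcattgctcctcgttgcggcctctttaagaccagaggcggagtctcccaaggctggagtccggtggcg
Slc25a24: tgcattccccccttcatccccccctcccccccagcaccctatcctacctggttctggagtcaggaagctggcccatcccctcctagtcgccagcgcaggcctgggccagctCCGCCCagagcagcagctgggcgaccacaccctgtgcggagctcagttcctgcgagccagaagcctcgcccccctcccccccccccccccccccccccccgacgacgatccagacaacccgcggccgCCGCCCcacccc
Slc25a36: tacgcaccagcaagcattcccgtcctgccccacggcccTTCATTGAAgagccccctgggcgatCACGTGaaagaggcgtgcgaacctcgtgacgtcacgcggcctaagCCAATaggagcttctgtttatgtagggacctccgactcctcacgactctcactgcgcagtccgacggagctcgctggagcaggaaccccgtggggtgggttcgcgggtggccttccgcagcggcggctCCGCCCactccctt
Slc25a10 held no match to any of the 4 motifs in this window. Slc25a24 held 2 GC boxes, beginning 139 and 12 bases before the start. Slc25a36 held 1 match to each motif, with the E-box beginning 187 and the STAT motif 212 bases before the start. Among the 11 called carriers, 9 had an entry, with 10 windows in all because Slc25a23 has 2 annotated starts. An E-box was found in 1 of these 10 windows and the STAT motif in 1, both in Slc25a36, CCAAT in 5 and the GC box in 7. Of 32851 windows of the same length, 6.02% hold the E-box, 7.02% the STAT motif, 33.8% CCAAT and 32.7% the GC box. A match is a run of letters and says nothing of binding.

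The di- and tricarboxylate carriers held the largest change. Slc25a10 exchanges malate or succinate for phosphate. Its log2 signal was 7.59, 7.86 and 7.61 on the 3 M(CSF2) arrays, against 10.01, 9.97 and 9.81 on the M(CSF1) arrays. The groups lay about 2 log2 units apart, and no M(CSF2) array came near an M(CSF1) one. The difference was -2.24 (SE 0.10, adjusted p = 3.3e-06), 4.72-fold lower with a 95% interval of 4.03 to 5.54. The citrate carrier Slc25a1, which exports citrate for lipid synthesis, averaged 8.54 ± 0.07 in M(CSF2) and 8.75 ± 0.04 in M(CSF1) (SD, n = 3 arrays each). Its groups did not overlap, but the difference of -0.21 did not pass (adjusted p = 0.061). With arrays centred on their medians it did (-0.25, adjusted p = 0.042). The oxoglutarate carrier Slc25a11, part of the malate-aspartate shuttle, was 9.22, 9.34 and 9.36 in M(CSF2), against 9.34, 9.33 and 9.32 in M(CSF1). Its groups overlapped, with a difference of -0.02 (95% interval -0.19 to 0.14). Slc25a21, the oxodicarboxylate carrier, lay at the background level in both groups. Of the 4 genes, 1 fell and 3 were not called.

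**Figure D3:**
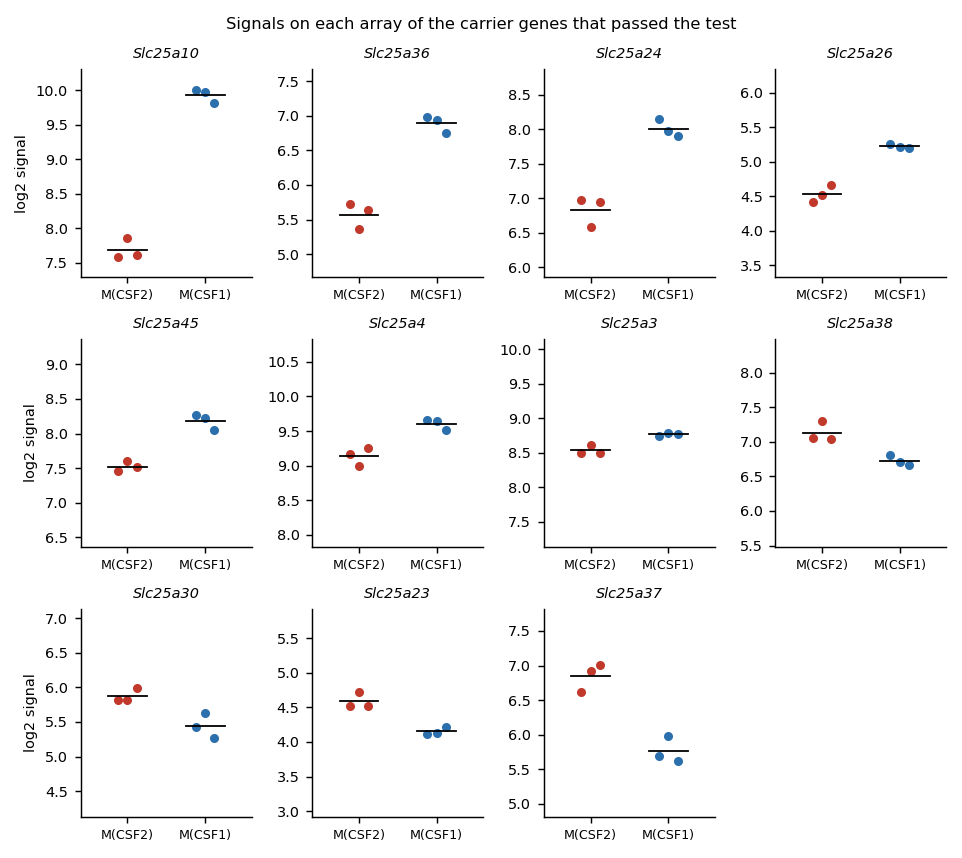
Log2 signal (vertical axes, each spanning 3 log2 units) of the 11 called carriers on each array, M(CSF2) in red at left and M(CSF1) in blue at right; points are arrays and bars group means. In each panel all 3 points of a group lie on the same side of the other group, with the widest gap for Slc25a10 and the narrowest for Slc25a3.

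Carriers of nucleotides and phosphate changed in both directions. Slc25a36 imports and exchanges pyrimidine nucleotides. It gave 5.72, 5.36 and 5.63 on the M(CSF2) arrays, against 6.98, 6.94 and 6.76 on the M(CSF1) arrays, a difference of -1.32 (SE 0.11, adjusted p = 8.3e-05). All M(CSF2) values were more than 1 log2 unit below all M(CSF1) values. Another probe set annotated to Slc25a36 averaged 4.50 in M(CSF2) and 5.35 in M(CSF1). Its difference of -0.85 (adjusted p = 0.0024 over all probe sets) is under 2-fold. With both probe sets averaged the difference was -1.09. The other pyrimidine nucleotide carrier, Slc25a33, was 4.78, 4.50 and 4.50 in M(CSF2), against 4.43, 4.73 and 4.49 in M(CSF1). Its groups overlapped (difference 0.04, 95% interval -0.22 to 0.31).

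The ATP-Mg/phosphate carriers adjust the adenine nucleotide pool of the matrix and most of them are regulated by calcium. Slc25a24 gave 6.98, 6.59 and 6.95 in M(CSF2), against 8.14, 7.97 and 7.91 in M(CSF1). The groups were well apart (difference -1.17, SE 0.12, adjusted p = 2.5e-04). Slc25a23 moved the other way, with 4.53, 4.73 and 4.53 in M(CSF2), against 4.11, 4.13 and 4.21 in M(CSF1), and the groups did not overlap (difference 0.44, SE 0.08, adjusted p = 0.0047). The M(CSF2) values of Slc25a23 in replicates 1 and 3 are identical in the deposited table. Slc25a25 was 5.86, 5.98 and 5.93 in M(CSF2), against 5.95, 5.93 and 5.63 in M(CSF1), and overlapped (difference 0.09, 95% interval -0.14 to 0.32). Slc25a41, a relative that lacks the calcium-binding part, gave -0.02 near the background level.

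The ADP/ATP carriers and the phosphate carrier supply ATP synthase with its substrates. The ADP/ATP carrier Slc25a4 (ANT1) fell: 9.17, 8.99 and 9.25 in M(CSF2), against 9.67, 9.64 and 9.52 in M(CSF1), with no overlap (difference -0.47, SE 0.09, adjusted p = 0.0058). Slc25a5 (ANT2), the ADP/ATP carrier of growing cells, had 10.80, 10.72 and 10.75 in M(CSF2), against 11.02, 10.93 and 10.89 in M(CSF1). The arrays did not overlap, and the difference was -0.20 (95% interval -0.36 to -0.03, adjusted p = 0.079). The 3 probe sets annotated to Slc25a5 list the same transcripts and gave -0.18, -0.20 and -0.20. RefSeq lists pseudogenes of Slc25a5, and signal from such near-identical copies cannot be told apart. After quantile normalization the difference of Slc25a5 was -0.42 (adjusted p = 0.0017) and it also passed with an intensity trend and robust variance (adjusted p = 0.046). The testis ADP/ATP carrier Slc25a31 was at the background level.

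Slc25a3, the phosphate carrier, was 8.50, 8.61 and 8.49 in M(CSF2), against 8.74, 8.79 and 8.77 in M(CSF1). These values did not overlap (difference -0.23, SE 0.07, adjusted p = 0.038), but the call was weak. It ended without M(CSF2) replicate 1 (-0.22, adjusted p = 0.093), without M(CSF2) replicate 3 (-0.21, adjusted p = 0.10) and without M(CSF1) replicate 1 (-0.24, adjusted p = 0.065), 2 (-0.22, adjusted p = 0.11) or 3 (-0.23, adjusted p = 0.065). It also ended with the replicate number as a block (adjusted p = 0.11) and after quantile normalization (adjusted p = 0.11).

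Mitoferrins bring iron into the matrix for haem and iron-sulphur clusters. Slc25a37, known as the mitoferrin of developing red cells, gave 6.62, 6.92 and 7.01 in M(CSF2), against 5.69, 5.98 and 5.62 in M(CSF1). The lowest M(CSF2) array lay above the highest M(CSF1) array (difference 1.09, SE 0.13, adjusted p = 5.6e-04), a 2.12-fold rise with a 95% interval of 1.72 to 2.63. The widely expressed mitoferrin 2, Slc25a28, was 6.26, 6.30 and 6.33 in M(CSF2), against 6.28, 6.17 and 6.32 in M(CSF1). These values overlapped, and the difference was 0.05 (95% interval -0.12 to 0.21). Slc25a38, which imports glycine for the first step of haem synthesis, was 7.05, 7.30 and 7.05 in M(CSF2), against 6.80, 6.70 and 6.67 in M(CSF1). It rose by 0.41 (SE 0.09, adjusted p = 0.012), and without M(CSF1) replicate 2 it missed the threshold (0.40, adjusted p = 0.054). Red cell markers did not move with these rises. None of 7 measured erythroid markers was called, against 27.5% of all genes. Their mean level was 3.56 to 3.60 on M(CSF2) arrays and 3.54 to 3.63 on M(CSF1) arrays. Alas2, Klf1 and Rhag lay at or below the background level on all arrays. Ermap, Slc4a1 and Epor were the brightest of the 7.

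**Figure D4:**
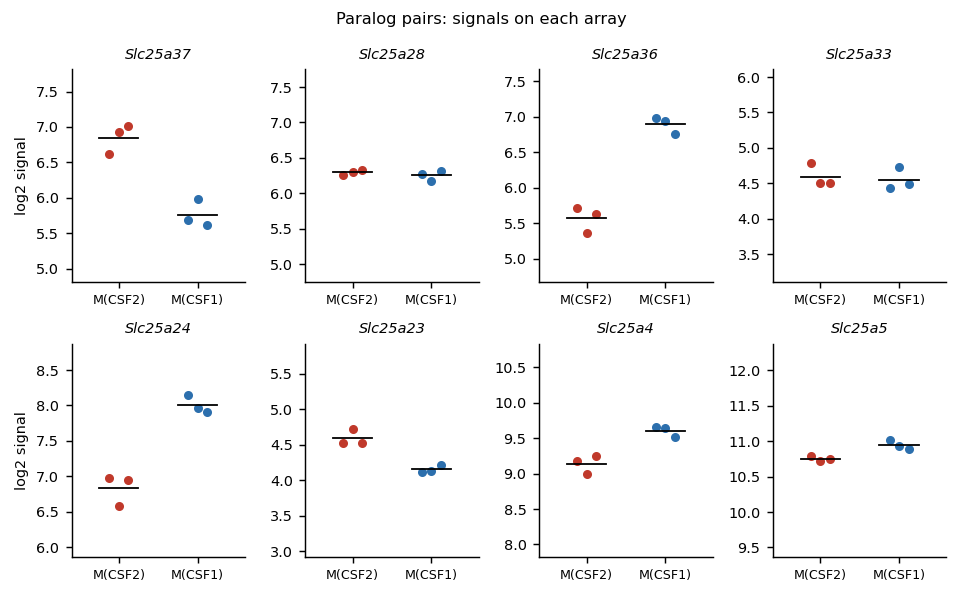
Log2 signal (vertical axes, each spanning 3 log2 units) of 4 paralog pairs on each array, M(CSF2) in red at left and M(CSF1) in blue at right; bars are group means. Slc25a37 and Slc25a36 separate by group while Slc25a28 and Slc25a33 overlap, and Slc25a24 and Slc25a23 separate in opposite directions.

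Whether related carriers changed by unequal amounts was examined from the within-array difference of log2 signals, in 9 pairs. Slc25a37 changed by 1.04 more than Slc25a28, and Slc25a23 by 0.35 more than Slc25a25. The value was -1.37 for Slc25a36 against Slc25a33, -1.61 for Slc25a24 against Slc25a23 and -1.26 for Slc25a24 against Slc25a25. It was -0.27 for Slc25a4 against Slc25a5 and -0.22 for Slc25a22 against Slc25a18. The within-array differences of the 2 groups did not overlap in 7 of the 9 pairs. For signals of single genes, groups did not overlap in 38.9% of all genes. The like share for differences between genes was not computed, so the count of pairs has no background of its own. Most of the 7 pairs hold a called carrier, and Slc25a23, Slc25a24 and Slc25a25 recur among them. The count thus partly restates those calls. With 3 arrays against 3, a 2-sided exact permutation test cannot go below p = 0.10, which these 7 pairs reached (0.13 after adjustment over 9), so none could pass. Slc25a12 against Slc25a13 (-0.19, exact p = 0.20) and Slc25a39 against Slc25a40 (0.18, exact p = 0.40) overlapped.

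Aspartate and glutamate carriers showed small differences. Slc25a12 (aralar), an aspartate/glutamate exchanger of the malate-aspartate shuttle, averaged 7.99 ± 0.03 in M(CSF2) and 8.19 ± 0.13 in M(CSF1) (SD, n = 3 arrays each; difference -0.21, adjusted p = 0.11). Its paralog Slc25a13 (citrin) gave -0.01. The glutamate carrier Slc25a22 gave -0.21 (adjusted p = 0.10), and its paralog Slc25a18 gave 0.02 close to the background level. Without M(CSF1) replicate 3, Slc25a12 (-0.27, adjusted p = 0.039) and Slc25a22 (-0.27, adjusted p = 0.046) passed the test. None of the 4 was called with all arrays.

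Among cofactor carriers, Slc25a26, which imports the methyl donor S-adenosylmethionine, fell. Its signals were 4.42, 4.51 and 4.67 in M(CSF2), against 5.25, 5.22 and 5.20 in M(CSF1), with no overlap (difference -0.69, SE 0.08, adjusted p = 4.9e-04). The folate carrier Slc25a32 (-0.20, adjusted p = 0.28) and the NAD carrier Slc25a51 (-0.15, adjusted p = 0.28) were not called. Carriers for fatty acid and coenzyme A transport were not called either. The carnitine/acylcarnitine carrier Slc25a20, which admits fatty acids for oxidation, gave 0.06 (95% interval -0.17 to 0.29). The coenzyme A carriers Slc25a16 and Slc25a42 gave -0.35 (adjusted p = 0.061) and -0.27 (adjusted p = 0.13), and the peroxisomal carrier Slc25a17 gave -0.16 (adjusted p = 0.15). In these 3 the groups did not overlap, and Slc25a16 passed the test with arrays centred on their medians (-0.38, adjusted p = 0.040) or dim genes left out (adjusted p = 0.032 and 0.040 with 2 filters). The glutathione importer Slc25a39 averaged 8.49 ± 0.04 in M(CSF2) and 8.55 ± 0.07 in M(CSF1) (SD, n = 3 arrays each; difference -0.06, 95% interval -0.22 to 0.10), and its paralog Slc25a40 gave -0.24 (adjusted p = 0.25).

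Of 5 uncoupling proteins and relatives, 1 rose. Slc25a30, described as a kidney carrier in mice, was 5.82, 5.82 and 5.99 in M(CSF2), against 5.42, 5.63 and 5.27 in M(CSF1). The groups did not overlap (difference 0.44, SE 0.11, adjusted p = 0.019). The call ended without M(CSF2) replicate 1 (0.47, adjusted p = 0.054), M(CSF2) replicate 3 (0.38, adjusted p = 0.070), M(CSF1) replicate 1 (0.43, adjusted p = 0.074) or M(CSF1) replicate 3 (0.35, adjusted p = 0.051). Ucp1, the heat-producing uncoupler of brown fat, averaged 3.67 in M(CSF2) and 3.50 in M(CSF1) (adjusted p = 0.49), close to the background level. Slc25a27 gave 0.18 and Slc25a14 -0.01.

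Carriers of other amino acids, Slc25a15 (ornithine, -0.12), Slc25a29 (basic amino acids, 0.01) and Slc25a44 (branched-chain amino acids, -0.11), were not called. In the poorly characterised group 1 of 9 fell. Slc25a45 was 7.45, 7.60 and 7.51 in M(CSF2), against 8.27, 8.22 and 8.05 in M(CSF1), with the groups clearly separate (difference -0.66, SE 0.08, adjusted p = 7.2e-04). The outer membrane member Slc25a46, which bears on mitochondrial shape, gave -0.18 (adjusted p = 0.21). Slc25a43 gave -0.01, Slc25a34 0.20, Slc25a35 0.28, Slc25a47 -0.08 and Slc25a48 0.15, all without a call. Without M(CSF1) replicate 3, Slc25a34 passed the test (0.33, adjusted p = 0.017).

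In RefSeq gene order 5 pairs of carriers are direct neighbours among protein-coding genes. Slc25a24 (-1.17) adjoins Slc25a54 (0.09, at the background level), and Slc25a23 (0.44) adjoins Slc25a41 (-0.02). Slc25a5 (-0.20) adjoins Slc25a43 (-0.01), Slc25a29 adjoins Slc25a47, and Ucp3 adjoins Ucp2. In none of these pairs were both members called.

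Genes that work with the carriers were given by 13 lists, whose counts of calls stand against 11.9% of all genes higher and 15.6% lower. Carrier insertion into the inner membrane runs through the TIM22 complex and small Tim chaperones. Of 8 measured members 1 rose, Timm8b by 1.47 (SE 0.10, adjusted p = 2.5e-05), and the other 7 were not called. Of 5 outer membrane channels and carrier-like Mtch genes, Mtch2 was 0.25 higher (adjusted p = 0.027) and the channel Vdac3 0.27 lower on the log2 scale (adjusted p = 0.021). Both calls were fragile. Mtch2 gave 0.21 to 0.28 without M(CSF2) replicate 1, 2 or 3 or M(CSF1) replicate 2 or 3 (adjusted p = 0.052 to 0.071), and Vdac3 -0.27 to -0.24 without M(CSF2) replicate 1 or 2 or M(CSF1) replicate 2 (adjusted p = 0.055 to 0.067). Mtch2 also missed the threshold after quantile normalization (0.15, adjusted p = 0.13), centring on array medians (0.22, adjusted p = 0.077) and averaging of its probe sets (0.22, adjusted p = 0.057), and both did with the replicate block (adjusted p = 0.089 for Mtch2, 0.068 for Vdac3). Of 6 pyruvate carrier and sideroflexin genes, 2 rose and 2 fell. The pyruvate carrier subunit Mpc1 rose by 0.89 and Sfxn3 by 1.35, while Sfxn5 fell by 2.43 and the serine transporter Sfxn1 fell by 0.65. In the calcium uniporter list 3 of 6 fell and none rose (15.6% of all genes lower, 11.9% higher), with the regulator Micu2 at -0.81 and the pore Mcu at -0.53.

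In a list of 8 genes of iron and haem handling, 4 rose and 1 fell, against 11.9% of all genes higher and 15.6% lower. Alas1, which catalyses the first and rate-limiting step of haem synthesis outside red cells and uses glycine, rose by 1.56 (SE 0.14, adjusted p = 1.2e-04). The haem pathway enzyme Cpox was 0.41 higher (adjusted p = 0.041) but without M(CSF2) replicate 1, 2 or 3 or M(CSF1) replicate 2 or 3 it gave 0.30 to 0.45 (adjusted p = 0.089 to 0.14). Cpox also missed it after centring on array medians (0.37, adjusted p = 0.061) and with the replicate block (adjusted p = 0.050). The transferrin receptor Tfrc, which takes iron into the cell, fell by 2.19 (SE 0.11, adjusted p = 6.6e-06). Ornithine enzymes had 3 of 6 higher and 1 lower (11.9% and 15.6% of all genes), with Arg1 (3.78) and Arg2 (3.15) higher and Oat (-0.75) lower. In the glutathione list, which goes beyond the enzymes of synthesis, 4 of 6 rose and 1 fell (11.9% and 15.6% of all genes). The cystine importer Slc7a11 rose by 4.47 and the rate-limiting ligase subunit Gclc by 1.75, and the reductase Gsr fell by 1.10.

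**Figure D5:**
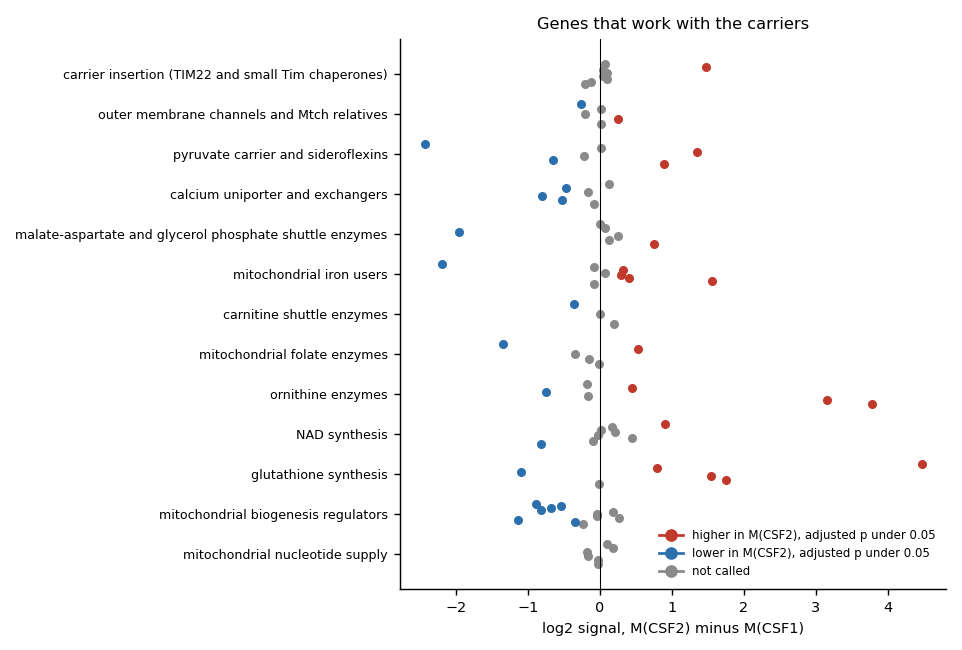
Log2 difference, M(CSF2) minus M(CSF1) (horizontal axis), of each measured gene in 13 lists of genes that work with the carriers; each point is a gene, red if higher and blue if lower in M(CSF2) at an adjusted p under 0.05, grey if not called. Slc7a11, at 4.47, lies farthest right and Sfxn5, at -2.43, farthest left, and the list of mitochondrial biogenesis regulators has blue and grey points and no red one.

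Shuttle and redox lists were mixed. Of 6 enzymes of the malate-aspartate and glycerol phosphate shuttles, Got1 rose by 0.76 and Gpd2, the mitochondrial glycerol phosphate dehydrogenase, fell by 1.96. Of 5 mitochondrial folate enzymes, Mthfd2l rose by 0.53 and Shmt2, the mitochondrial serine hydroxymethyltransferase, fell by 1.36. In NAD synthesis 1 of 8 rose (Nmrk1, 0.91) and 1 fell (the NAD kinase Nadk, -0.82). Of 3 carnitine shuttle enzymes 1 fell (Crat, -0.36), and none of 6 mitochondrial nucleotide supply genes was called. Regulators of mitochondrial biogenesis had 6 of 11 lower and none higher, with a median of -0.35, against 0.04 over all genes and a background of 15.6% lower. In that list Myc fell by 1.13 and the mitochondrial transcription factor Tfb2m fell by 0.89.

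The samples carried macrophage markers in both groups: the brightest of 10 were Lyz2 (11.95 in M(CSF2), 12.43 in M(CSF1)), Adgre1 (10.70 in M(CSF2), 11.88 in M(CSF1)) and Itgam (11.17 in M(CSF2), 11.37 in M(CSF1)). Of these 10, 3 were higher in M(CSF2) (Cd14 by 1.71, Cd68 by 0.89 and Csf1r by 0.60). Another 4 were lower (Fcgr1 -1.23, Adgre1 -1.18, Ptprc -0.73 and Lyz2 -0.48). Counts of calls in each marker list here stand against 11.9% of all genes higher and 15.6% lower. Array medians lay between 3.91 and 4.00, and arrays correlated at 0.995 to 0.997 within a group and 0.954 to 0.959 between groups. Markers of cell division moved with the falls among carriers: 11 of 11 were lower (Pcna, Mcm2 and Mki67 brightest), with a mean level of 5.39 to 5.51 on M(CSF2) arrays and 7.67 to 7.90 on M(CSF1) arrays. Their part in these differences was not tested. Mast cell and basophil markers moved with the rises, 4 of 9 higher, at a mean level of 4.22 to 4.29 on M(CSF2) arrays and 3.14 to 3.36 on M(CSF1) arrays. Hdc, Gata2 and Kit led that list while Cpa3, Fcer1a, Mcpt4, Mcpt8 and Ms4a2 lay at or below the background level on all arrays, and its part was not tested. The fourth call in that list, Mcpt8, thus rests on signal at the background level. Among 10 neutrophil markers 3 were called higher and 1 lower, with a mean level of 5.0 to 5.25 on M(CSF2) arrays and 4.43 to 4.64 on M(CSF1) arrays. Mmp8 (4.44), Csf3r (-1.57) and S100a8 (2.37) were the brightest, given with their log2 differences. Cxcr2, Ltf and Ngp lay at or below the background level on all arrays, and the part of this list was not tested either. Ltf, 1 of the 3 that were called higher, thus rests on signal at the background level. Of 7 T and NK cell markers (Cd3e, Cd4 and Cd8a brightest) and 5 B cell markers (Cd79b, Pax5 and Cd79a brightest) 1 each was lower, and of 8 stromal and adipocyte markers (Dcn, Col1a1 and Postn brightest) 1 was higher and 1 lower. In bulk RNA such as this, fewer cells of a type and less RNA per cell cannot be told apart.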

How the data were processed

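RNA from 3 M(CSF2) and 3 M(CSF1) samples was measured on 6 arrays. The values are log2 signals as the authors deposited them, 1 column per array for 28941 probe sets. The scale is not stated and was read as log2 from the range, 1.48 to 13.27. Per the submitters' processing notes MAS5 was used; background correction, normalization and summary method are not given in the sources used here. Depth does not apply to arrays, and their number limits the precision.

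GEO's platform annotation gave the gene names: 21789 probe sets carried 1 gene, 1621 several genes and 5531 no name here. Only those with 1 gene were used, the brightest per gene. Differences were fitted with limma 3.58.1 in R 4.3.3 over all 19938 genes, with no filter on dim genes, and each adjusted p in the text comes from that fit unless another is named. The threshold for a call was an adjusted p of 0.05, and 2-fold is a log2 difference of 1. The fit was tested on simulated data with independent normal noise and few changed genes, a simpler setting than these data. Gene IDs matched a RefSeq table (GRCm38.p6) for 21698 probe sets.

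The members and lists were chosen with earlier results of these data known. Per-array values are given for carriers called at 2-fold or more, for paralog groups in which 1 member was called and for the brightest 5 carriers; other called carriers are also given by array. From each list of partner genes up to 2 called genes a direction are named, and from marker lists at least the brightest 3. Other settings tried were a fit without each array in turn, the replicate number as a block, an intensity trend with robust variance, dim genes removed in 2 ways, averaged probe sets, median centring and quantile normalization. Ucp2 was not analysed here.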

Additional observations from a re-analysis of the deposited data

How the results depend on the processing

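The counts of carriers called stayed within 1.5 times of the reported ones under all 13 alternatives, with 3 to 4 higher and 6 to 9 lower, and 4 carriers changed at least 2-fold in each. Of the 11 called carriers, 8 kept their call and direction throughout; in 143 refits of the 11, 12 lost the call, all in Slc25a3, Slc25a30 and Slc25a38, and 0 changed direction. Differences of 13 carriers near 0, none of them called, changed sign. After quantile normalization Slc25a13 gave 0.0825, Slc25a18 -0.0406, Slc25a29 -0.0398 and Slc25a43 0.109, and after centring on array medians Slc25a18 gave -0.0205 and Slc25a29 -0.0269. The ranges with 1 array left out were Slc25a11 -0.0512 to 0.0202, Slc25a13 -0.117 to 0.0714, Slc25a14 -0.0838 to 0.0767, Slc25a18 -0.0743 to 0.0768, Slc25a20 -0.0158 to 0.147 and Slc25a21 -0.0504 to 0.0492; Slc25a25 -0.0133 to 0.145, Slc25a29 -0.114 to 0.103, Slc25a31 -0.0019 to 0.0979, Slc25a33 -0.05 to 0.134, Slc25a41 -0.161 to 0.11, Slc25a43 -0.0435 to 0.0364 and Slc25a47 -0.144 to 0.0172. The cause was not tested. Of 27 partner genes named, 24 kept their call in every alternative fit that included them (350 fits in all; Nmrk1 was filtered out of 1); Mtch2, Vdac3 and Cpox did not.

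With the replicate number as a block, 4 carriers were higher and 6 lower, and over all genes 2136 were higher and 2936 lower. The same-numbered arrays deviated from their group means with correlations of 0.004, -0.04 and -0.25 across genes. Arrays did not correlate best with their own number. With 3 arrays a group the deviations depend on each other, so these values cannot settle whether the numbers pair the samples.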

Other observations

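The deposited table holds exactly repeated values. For 17 of 48 carriers (35.4%) at least 2 of the 6 arrays carry the same value to the last digit given, against 35.0% of all genes. Within 1 group this held for 13 carriers (27.1%), against 23.5% of all genes, and among the called carriers only for Slc25a23. All 3 M(CSF1) values of Slc25a18 are identical. How such repeats arose, and how they bear on the spread between arrays, was not tested.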
